A study of Mus with 3 samples.

Results

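The granzyme and perforin genes Gzma, Gzmb, Gzmc, Gzmd, Gzme, Gzmf, Gzmg, Gzmk, Gzmm and Prf1 were followed through a single-cell data set of T cells from MC38 mouse colon tumors. They are 10 of the 32285 genes counted, and they were taken by name as the cytolytic granule proteases and the pore former, not by their values. MC38 tumors of 3 genotypes, WT, RARα-KO and RARα-TG, were taken 16 days after the cells were injected. Cells of each genotype were stained with their own hashtag antibody, sorted as 30000 CD45.2+ CD3+ T cells plus 10000 total cells, pooled, and run through 1 droplet experiment with 5′ gene expression, T cell receptor and hashtag libraries. The RARα-KO mice (dLck-Cre×Rara L/L) lack functional RARα, a receptor for retinoic acid, in T cells, because Cre is driven by the distal Lck promoter, and the RARα-TG mice (CD2-Rara) carry a Rara transgene under a CD2 promoter. C57BL/6 and dLck-Cre mice are the study's control strains. Which of them gave the WT cells and how many mice were pooled per genotype is not given in the sources used here. The labels also name spleen, naive CD8 T cells and activation with anti-CD3/28 and IL-2, which goes against the tumor protocol given for the same samples.

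Cytotoxic T lymphocytes (CTLs) store perforin and granzymes in lysosome-related granules. On contact with a target cell the granules are released, perforin, the product of Prf1, opens the target's membrane, and granzymes, which are serine proteases, enter and cleave proteins there. Gzmb cleaves after aspartate and activates caspases, whereas Gzma and Gzmk are tryptases that cleave after lysine or arginine. Gzmm cleaves after methionine or leucine. Gzmc, Gzmd, Gzme, Gzmf and Gzmg are rodent genes next to Gzmb that are known from strongly stimulated T cells and NK cells.

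In RefSeq's GRCm38.p6 annotation, the build that mm10 names, Gzmb lay at chr14:56258836-56262334 and Gzmc, Gzmd, Gzme, Gzmf and Gzmg lay beside it, so that the locus with Gzmn spanned 7 genes in 145 kb. Gzmn had 0 UMIs in the T cells of each genotype. Gzma (chr13:113093824-113100981) and Gzmk (chr13:113171630-113180965) are neighbours on chromosome 13, and Gzmm (chr10:79689020-79695261) and Prf1 (chr10:61297751-61304684) both lie on chromosome 10. The 5 genes from Gzmc to Gzmg are close copies of each other, so reads can be split or shared between them. Their single values are uncertain for that reason, and they are also given as 1 sum. UMI counts from a 5′ library do not rank genes against each other, so each gene is compared only with itself.

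Of 730308 barcodes, 5585 were called as cells, with a median of 4823 unique molecular identifiers (UMIs), and 4925 carried 1 hashtag: 1927 WT, 2103 RARα-KO and 895 RARα-TG cells. T cells were the cells of clusters in which most barcodes had a T cell receptor, and CTLs were the T cells with Cd8a and without Cd4 UMIs. That left 840 CTLs in WT and 1178 in RARα-KO, but 113 in RARα-TG. In this order they held 5608244, 8095076 and 602657 UMIs in sum, with median depths of 5669, 5574 and 4680 UMIs. Values given in threes below keep the order of WT, RARα-KO, RARα-TG. The CTLs carried the markers of their gate: the CD8 markers summed to 1997, 1942 and 1608 UMIs in 1000000 (CPM), of which Cd8a defined the gate. Neutrophil markers were at 0, and macrophage markers stood at 18.7, 21.7 and 18.3 CPM. Dendritic cell markers summed to 322, 153 and 141 CPM and the regulatory T cell markers Foxp3, Il2ra, Ikzf2 and Ctla4 to 446, 509.8 and 294 CPM. In T cells, Rara had 249 CPM in RARα-TG against 87.2 CPM in WT and 80.1 CPM in RARα-KO. The RARα-TG label matched its gene, whereas the RARα-KO line still makes a Rara transcript that lacks part of its exons, so the counts do not check that label. The median share of a CTL's hashtag counts that belonged to its own hashtag was lowest in WT (81.9%), with 94.96% in RARα-KO and 89.8% in RARα-TG.

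Each genotype was 1 pooled sample, so no difference between genotypes has a replicate check and no test was made. Brackets give exact 95% intervals from the UMI or cell counts, which cover counting error only. Mouse, sample and genotype cannot be told apart, and fewer transcripts per cell cannot be told apart from fewer expressing cells where only a sum is given.

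Among the cells of named types, granzymes and perforin were found mostly in T cells. Gzmb reached 7.38% of 420 MC38/stromal-like cells at 25.7 CPM, with a median depth of 29383 UMIs, and 9.21% of 239 macrophage-like cells at 246 CPM, with a median depth of 6630 UMIs (444 CPM in RARα-KO and 22.6 CPM in WT). With every cell thinned to 1000 UMIs, a Gzmb UMI was found in 1.19% of MC38/stromal-like cells, 4.62% of macrophage-like cells and 61.4% of CTLs. Each other member was found in at most 0.396% of the thinned MC38/stromal-like cells. In macrophage-like cells Gzma stood at 1.68%, Gzmf at 0.840% and the others at 0.420% or less, and shares near these are background. In 106 dendritic-like cells Gzmc stood at 1.89%. In 114 thinned cells of clusters without a name, Gzmb stood at 11.4%, Gzme at 4.39% and Gzmc, Gzmd, Gzmf and Prf1 at 3.51% each. Gzmd and Gzme were found in 4.90% and 4.85% of thinned CTLs, so these shares were close.

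**Figure D1:**
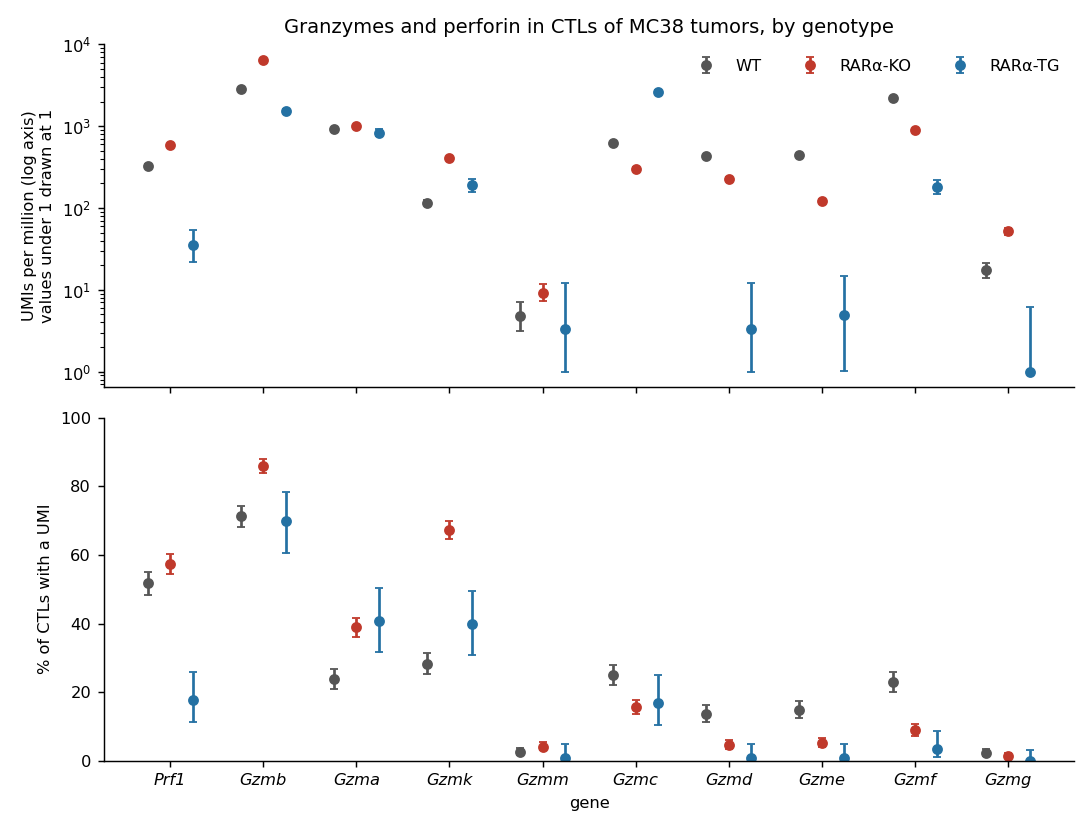
Level of each granzyme and of Prf1 in CTLs, in CPM on a log axis (above), and percent of CTLs with a UMI of it (below), by genotype (1 pooled sample each, in color); bars show exact 95% intervals from the UMI or cell counts, and values under 1 CPM are drawn at 1. Gzmb and Gzmk are highest in RARα-KO CTLs, Gzmd, Gzme and Gzmf are highest in WT CTLs, and the RARα-TG value of Gzmg is a count of 0.

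Perforin was most abundant in RARα-KO CTLs and scarce in RARα-TG CTLs. Prf1 stood at 327 CPM (312 to 343) in WT, 583 CPM (566 to 599) in RARα-KO and 34.8 CPM (21.6 to 53.3) in RARα-TG CTLs. A Prf1 UMI was found in 51.7%, 57.3% and 17.7% of these cells. The log2 ratio to WT was 0.83 (0.75 to 0.91) for RARα-KO and -3.23 (-3.93 to -2.62) for RARα-TG, where 21 UMIs carried the value. Among CTLs with at least 90% of hashtag counts from their own hashtag, which left 17 WT and 1130 RARα-KO CTLs, the RARα-KO ratio was -0.05.

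Gzmb followed the same order of genotypes. Its level was 2879.9 CPM (2836 to 2925) in WT, 6469 CPM (6414 to 6525) in RARα-KO and 1532 CPM (1434 to 1634) in RARα-TG CTLs. Against WT, the log2 ratio of RARα-KO was 1.17 (1.14 to 1.19) and that of RARα-TG was -0.91 (-1.01 to -0.82). The share of CTLs with a Gzmb UMI differed less than the level, at 71.3%, 86.0% and 69.9%. Thinned to 1000 UMIs, 52.0% of WT and 52.3% of RARα-TG CTLs had one, against 68.8% of RARα-KO CTLs. The median CTL held 13 Gzmb UMIs in RARα-KO and 4 in both WT and RARα-TG, so that the medians of WT and RARα-TG CTLs were equal while their levels differed. The RARα-KO ratio was 0.38 without clusters 2 and 4, described below, and the RARα-TG ratio turned positive, to 1.05, with clusters weighted equally and to 0.15 with clonotypes weighted equally. Among RARα-KO CTLs, the 10% of cells with the most Gzmb UMIs held 55.9% of them, and in WT they held 59.3%.

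The tryptase genes behaved differently from each other. Gzmk had 117 CPM (108 to 126) in WT, 404 CPM (391 to 419) in RARα-KO and 189 CPM (156 to 227) in RARα-TG CTLs, with log2 ratios to WT of 1.79 (1.67 to 1.92) and 0.70 (0.40 to 0.99). Both RARα mutants thus lay above WT. A Gzmk UMI was found in 28.3%, 67.3% and 39.8% of CTLs, and at 1000 UMIs per cell in 8.81%, 29.8% and 21.6%. Gzma, whose gene lies next to Gzmk, stood at 918, 996 and 836 CPM over all CTLs, with log2 ratios to WT of 0.12 (0.07 to 0.17) and -0.13 (-0.27 to -0.00). The RARα-KO to WT ratio of Gzma was 1.41 with clonotypes weighted equally and 0.50 without the top clonotypes, and it ran from -0.48 in cluster 4 to 1.74 in cluster 2 of the clusters described below. Its spread over cells was not level: 23.7% of WT CTLs held a Gzma UMI, against 38.9% of RARα-KO and 40.7% of RARα-TG CTLs, and 1 WT CTL held 11.6% of the WT Gzma UMIs. Its RARα-TG ratio was above 0 under 7 of 17 alternative settings. With the cells of the first calling step alone, the ratio was -0.12 for Gzma in RARα-KO and -0.28 for Gzmk in RARα-TG. Gzmm was close to undetected in all genotypes, with 27, 75 and 2 UMIs, and was too low for the comparisons below.

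The genes from Gzmc to Gzmg were most abundant in WT CTLs. Their sum stood at 3723 CPM (3673 to 3774) in WT, 1598 CPM (1571 to 1626) in RARα-KO and 2808 CPM (2675 to 2945) in RARα-TG CTLs, and 35.8%, 22.1% and 17.7% of the cells held a UMI of at least 1 of the 5 genes. Gzmf, the most counted of them in WT, had 2218, 894 and 181 CPM. Gzmd had 427, 228 and 3.32 CPM, and Gzme had 443, 122 and 4.98 CPM. In RARα-TG CTLs these values rest on 2 Gzmd and 3 Gzme UMIs. The RARα-KO to WT log2 ratio was -1.02 for Gzmc, -0.91 for Gzmd, -1.86 for Gzme, -1.31 for Gzmf and -1.22 (-1.25 to -1.19) for the sum. With clusters weighted equally it was 0.29 for Gzmc and -0.22 for the sum. Gzmg went the other way at 1.58 (1.26 to 1.91), with 17.3 CPM in WT and 51.6 CPM in RARα-KO CTLs, but a single CTL held 36.1% of its WT UMIs and another held 27.0% of its RARα-KO UMIs. Gzmg had 0 UMIs in RARα-TG CTLs, which allows up to 6.12 CPM.

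Counted over the members, 9 passed the minimum of 0.1 UMIs per cell in either group for RARα-KO against WT CTLs; 3 were at least 2-fold higher (Gzmb, Gzmk and Gzmg) and 3 at least 2-fold lower (Gzmc, Gzme and Gzmf). Of the 6585 genes tested, 1.2% were at least 2-fold higher and 1.0% at least 2-fold lower. The median log2 ratio was 0.12 over the 9 members and 0.02 over all genes tested. For RARα-TG against WT, Gzmc was at least 2-fold higher and 5 of 9 members were at least 2-fold lower, against 4.57% and 5.55% of 6589 genes. The median there was -1.80 over the members, with Gzmg at its bound, and 0.01 over all genes tested.

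The high Gzmc level of RARα-TG CTLs, 2618 CPM against 617 CPM in WT and 303.4 CPM in RARα-KO, came from a few cells. Of 1578 Gzmc UMIs, 688 (43.6%) were in 1 cell and 1386 (87.8%) in 3 cells, and without these 3 the level was 339 CPM. None of the 3 had a Cd8b1 UMI, the second CD8 chain, and 2 of the 3 had no T cell receptor sequence. Each held 26 or more UMIs of Fcer1g, a signalling adaptor common in NK and innate-like cells. The 18 RARα-TG CTLs without Cd8b1 held 91.7% of the RARα-TG Gzmc UMIs, whereas CTLs without Cd8b1 held 0.116% of those in WT and 1.06% in RARα-KO. Among CTLs with Cd8b1, the RARα-TG Gzmc level was 273 CPM (228 to 324) and the log2 ratio to WT was -1.24 (-1.50 to -0.99), where over all CTLs it was 2.08. The sum of the 5 genes also moved with this gate, from a log2 ratio of -0.41 to -2.97, while the ratios of Gzmb (-0.87), Gzmk (0.91) and Prf1 (-3.07) stayed close to their values over all CTLs. Over all CTLs, gamma delta T cell markers summed to 31.5 CPM in RARα-TG against 0.535 CPM in WT and 0.124 CPM in RARα-KO. The 3 cells with most Gzmc held 0, 1 and 0 UMIs of the gamma delta marker Trdc. They held 0, 8 and 10 UMIs of Cd3e, 1, 0 and 0 of Ncr1 and 1, 1 and 0 of Klrb1c. NK markers stood at 994, 1109 and 483 CPM over all CTLs, with Klra8 at 0 in all 3 genotypes and Ncr1 at 0 in WT and RARα-KO. The part of cell type in the result was not tested.

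The T cells fell into 11 clusters, which were built without the 10 members and Gzmn, and each cluster is called here by its number and leading genes. Other genes of the same cells made the clusters, so levels by cluster are a description. Gzmb levels differed widely between clusters. Over all genotypes it stood at 9782 CPM with a UMI in 96.7% of cells in cluster 2 (Serpine2, Ccl5 and Lag3) and at 6162 CPM in cluster 9 (Rln3 and Klrg1). It was at 3745 CPM in cluster 0, whose leading genes were Foxp3, Lrrc32 and Tnfrsf4, genes of regulatory T cells. It was lowest in cluster 10 (Tnfsf11, Tnfsf8 and Csf2) at 372 CPM, cluster 6 (S1pr1, Klra7 and Tcf7) at 394 CPM and cluster 7 (S1pr1, Tcf7 and Cd7) at 889 CPM.

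The other members had other patterns over the clusters. The Gzmc to Gzmg sum was at 7801 CPM in cluster 4, led by Nrgn, Irf8 and Pdcd1, and at 9.72 CPM in cluster 0. Gzmd and Gzme were also high in cluster 10, at 348 and 409.6 CPM, in 8.75% and 10.0% of its cells. Gzmb was low there. Prf1 was at 990.4 CPM in cluster 2 and 587 CPM in cluster 4 and at 202 CPM or less in each of the other 9. Gzma ranged from 4.11 CPM in cluster 0 to 1756 CPM in cluster 3 (Ifitm1, Ctsw and Ly6c2). Gzmk was highest in cluster 13 (Ifit1) at 508 CPM, cluster 2 at 484 CPM and cluster 7 at 474 CPM, and had 0 UMIs in cluster 9. In cluster 0 and cluster 9, Gzmb was thus well above its own level in clusters 6, 7 and 10. Prf1, Gzma and Gzmk were near the low ends of theirs: Prf1 stood at 35.1 and 38.7 CPM, and Gzma and Gzmk at 6.77 CPM or less. Clusters 2 and 4 each had an NK receptor gene (Klrd1 and Klre1) among their 10 leading genes. CTLs made up 94.0% and 95.5% of their cells, 82.6% and 91.2% had a T cell receptor sequence, and Cd8a was a marker of cluster 2 and among the 10 leading genes of cluster 4. Cluster 6 had the NK markers Ncr1, Klrb1c and Klra8 at least 4-fold above the other cells, and CTLs made up 22.6% of it. The gamma delta T cell markers Trdc and Tcrg-C1 were at least 4-fold higher in clusters 6 and 7.

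**Figure D2:**
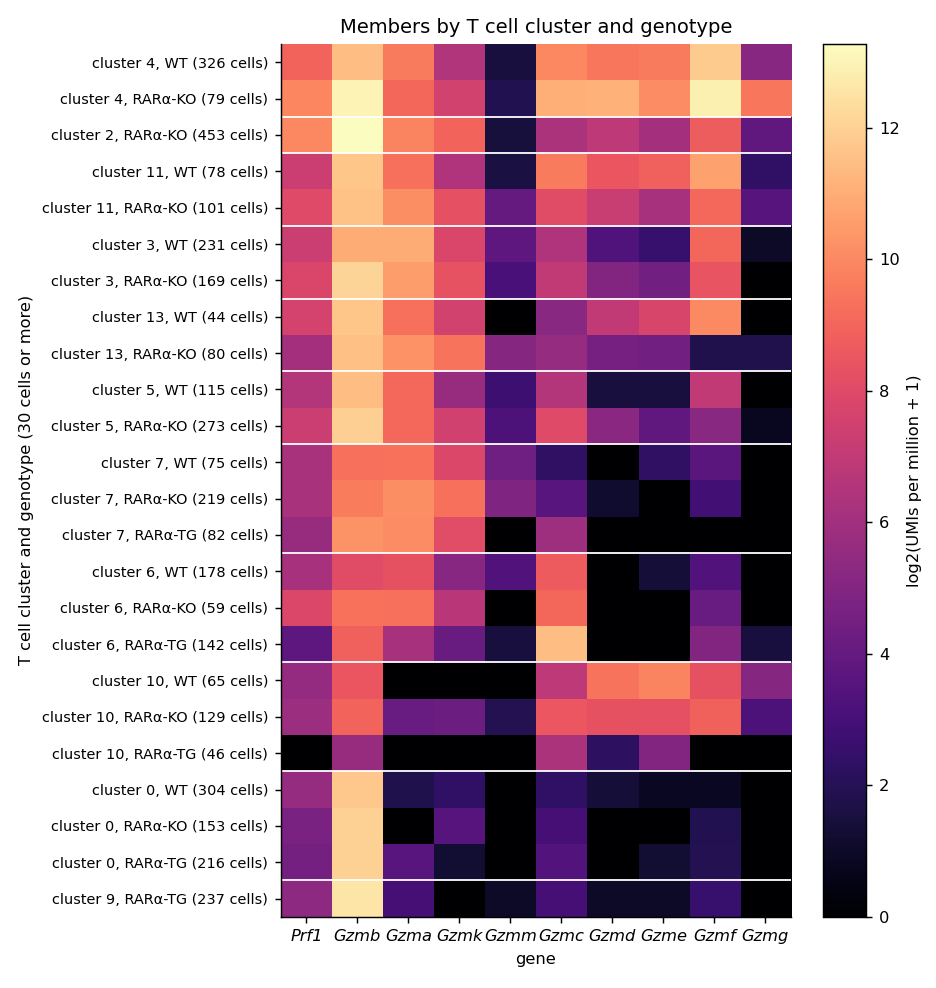
Level of each member by T cell cluster and genotype, as log2(CPM + 1) in color, for the 24 groups of at least 30 cells, with cell numbers beside them. Gzmb is high in clusters 0, 2, 4 and 9, the genes from Gzmc to Gzmg in cluster 4, and Gzmk in clusters 2, 7 and 13.

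The genotypes filled the clusters unequally. Cluster 4 held 322 of the WT CTLs (38.3%) and 70 of the RARα-KO CTLs (5.94%), and it held 76.3% of the WT and 63.4% of the RARα-KO Gzmc to Gzmg UMIs found in CTLs. Cluster 2 held 23 WT CTLs (2.74%) and 427 RARα-KO CTLs (36.2%), and with them 60.8% of the RARα-KO Gzmb and 68.1% of the RARα-KO Prf1 UMIs. RARα-TG CTLs were mostly in cluster 7 (50.4%) and cluster 6 (23.0%). Cluster 2, with 0 RARα-TG cells, and cluster 9, with 237 RARα-TG cells of 244, were mostly of 1 genotype and may reflect that sample.

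Within clusters, the difference between RARα-KO and WT CTLs in the Gzmc to Gzmg sum took both directions. In cluster 4 the sum was higher in RARα-KO CTLs, at 11968 CPM against 6181 CPM in WT, a log2 ratio of 0.95 (0.92 to 0.99). A single RARα-KO clonotype held 35.8% of these UMIs, and without the top clonotype of each genotype the ratio was 0.80 (0.75 to 0.84). Gzmb in cluster 4 was at 2886 CPM in WT and 8689 CPM in RARα-KO, a log2 ratio of 1.59, and Prf1 was at 480.5 and 995 CPM, a log2 ratio of 1.05. Of the 9 members tested in cluster 4, 5 were at least 2-fold higher in RARα-KO and 0 at least 2-fold lower, against 3.57% and 4.61% of all genes tested. The median log2 ratio was 1.05 over the members and -0.02 over all genes. In contrast the sum was lower in RARα-KO CTLs of cluster 2 at -2.84, cluster 11 at -1.67 and cluster 13 at -3.56, while it was -0.22 in cluster 3, 0.60 in cluster 5 and 0.94 (-1.19 to 4.12) in cluster 7. The cluster 2 value rests on 23 WT CTLs, of which 1 clonotype held 64.3% of the WT UMIs; without the top clonotypes it was -1.84. Leaving out the CTL with the most UMIs in each genotype gave -2.41 in cluster 11 and -3.22 in cluster 13. Leaving out the top clonotypes gave -1.33 and -3.38. In cluster 3 the ratio was -0.06 (-0.29 to 0.17) without the top CTLs and -0.05 (-0.28 to 0.18) without the top clonotypes.

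Gzmk was higher in RARα-KO than in WT CTLs in each of the 7 clusters with at least 20 CTLs of both genotypes. The log2 ratio ran from 0.60 in cluster 3 (226 against 341 CPM) to 1.88 in cluster 13 (213 against 785 CPM). It was 1.23 in cluster 7, 1.79 in cluster 5 (Xcl1, Ifng and Ccl4) and 1.81 in cluster 11 (Hist1h1b, Pclaf and Mki67). Without the top CTL of each genotype the 7 ratios ran from 0.61 to 2.06, and without the top clonotype from 0.47 to 2.34. Gzmk thus had the direction seen over all CTLs in each of these clusters, and the Gzmc to Gzmg sum had it in 4 of 7. Among these 4 was cluster 3, where the interval of the sum spanned 0 without the top CTLs or clonotypes.

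Gzmb varied between these. Its log2 ratio of RARα-KO to WT was 1.59 in cluster 4, 1.19 in cluster 3, 0.42 in cluster 2, 0.36 in cluster 5, 0.29 in cluster 7, 0.11 in cluster 13 and -0.12 in cluster 11. In clusters 2, 5 and 7 single WT CTLs held 29.8%, 31.2% and 48.1% of the WT Gzmb UMIs, and cluster 2 had only 23 WT CTLs. Without the top CTL of each genotype the ratios were 0.80, 0.79 and 0.92. With the clusters given equal weight, the ratio over CTLs was 0.60, against 1.17 for the pooled cells. Prf1 was higher in RARα-KO CTLs in 6 of the 7 clusters, with log2 ratios of 0.15 to 1.05 and intervals that span 0 in clusters 2 and 7. It was lower in cluster 13 at -1.67, from 21 RARα-KO and 34 WT UMIs. That ratio was -1.17 (-2.14 to -0.20) without the top CTL of each genotype and -0.75 (-1.79 to 0.30) without the top clonotypes.

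**Figure D3:**
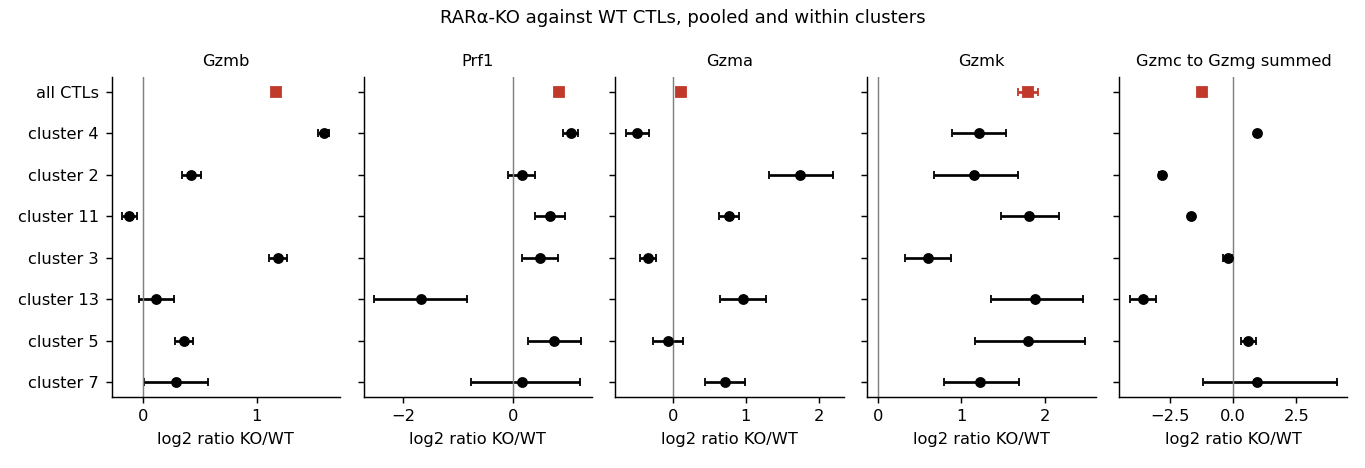
RARα-KO to WT log2 ratio of Gzmb, Prf1, Gzma, Gzmk and the Gzmc to Gzmg sum (1 panel each) in CTLs of each cluster with at least 20 CTLs of both genotypes, in black, with the ratio over all CTLs in red; bars show the exact 95% interval from the UMI counts. Gzmk lies above 0 in all 7 clusters, and the Gzmc to Gzmg sum lies above 0 in cluster 4 and below it over all CTLs.

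For RARα-TG against WT, clusters 6 and 7 had enough CTLs of both genotypes. Both clusters carried gamma delta T cell markers and cluster 6 also NK markers, as given above. In cluster 7, Gzmb was higher in RARα-TG CTLs (1410.3 CPM against 770.2 CPM, log2 ratio 0.87, 0.58 to 1.17), as was Gzma (1248 against 782 CPM, 0.67). Gzmk at 0.18 (-0.35 to 0.73) and Prf1 at -0.51 (-1.76 to 0.75) had intervals that span 0. In cluster 6, Gzmb was at 349 CPM in WT and 909.9 CPM in RARα-TG CTLs, a log2 ratio of 1.38 (0.99 to 1.79), while Prf1 had a log2 ratio of -3.11. The lower Gzmb of pooled RARα-TG CTLs was thus not present in the 2 clusters that held most of them. In cluster 6 the Gzmc to Gzmg sum was 4.36 CPM in WT, from 1 UMI, and 8045 CPM in RARα-TG CTLs, which are the few cells described above.

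CD4 T cells, with Cd4 and without Cd8a or Cd8b1 UMIs, expressed Gzmb, and each of Gzma, Gzmk and Prf1 lay below its level in WT and RARα-KO CTLs. Among 216 WT, 245 RARα-KO and 261 RARα-TG cells, Gzmb stood at 2163, 1805 and 3695 CPM, with a UMI in 58.8%, 46.9% and 64.4% of cells. The order of genotypes was the reverse of that in CTLs: against WT, RARα-KO had a log2 ratio of -0.26 (-0.34 to -0.18) and RARα-TG one of 0.77 (0.70 to 0.85). Gzma was near 0 at 0.962, 1.47 and 4.15 CPM, Gzmk stood at 25.0, 33.7 and 3.32 CPM, and Prf1 at 40.4, 35.2 and 29.0 CPM. The Gzmc to Gzmg sum was present in WT and RARα-KO, at 731, 645 and 43.1 CPM. The CD4 gates also differed in makeup, with Foxp3 UMIs in 120 of 216, 79 of 245 and 150 of 261 cells, and the part of this in the Gzmb order was not tested.

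In CD4 T cells with Foxp3, the factor that defines regulatory T cells, Gzmb was at 3047, 3964 and 5026 CPM in 120, 79 and 150 cells. A Gzmb UMI was present in 80.8%, 93.7% and 87.3% of them. Gzma had 0 UMIs in all 3 genotypes, which allows up to 6.15, 7.55 and 5.02 CPM. Prf1 stood at 23.3, 20.5 and 40.8 CPM, and the Gzmc to Gzmg sum at 18.3, 55.3 and 20.4 CPM. Foxp3+ cells of all 3 genotypes thus held Gzmb between the RARα-TG and RARα-KO levels of CTLs, with Prf1 below that of WT and RARα-KO CTLs.

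In CD4 T cells without Foxp3 the picture was different. Gzmb was lower, at 959, 601 and 1621 CPM, and was found in 31.2%, 24.7% and 33.3% of cells. The sum from Gzmc to Gzmg was at 1702, 975 and 78.5 CPM. These UMIs were in few cells. Over all CD4 T cells, 21 of 216, 36 of 245 and 23 of 261 held them. In WT, 1 clonotype of 14 cells held 45.7% of the UMIs, and in RARα-KO 1 clonotype of 6 cells held 24.4%. Of 7 members tested between RARα-KO and WT CD4 T cells, 1 was at least 2-fold higher (Gzmc, 2.25) and 1 at least 2-fold lower (Gzme, -1.02), against 1.35% and 2.42% of 6164 genes. Between RARα-TG and WT, 0 of 7 were at least 2-fold higher and 4 at least 2-fold lower (Gzmd, Gzme, Gzmf and Gzmk, from -7.17 to -2.91), against 2.02% and 2.12% of 5996 genes.

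Clonotypes, cells of 1 genotype with the same T cell receptor chains, were grouped by their number of T cells. In WT, 121 CTLs were alone in their clonotype and 467 belonged to 19 clonotypes of 10 or more T cells. In RARα-KO the numbers were 93 CTLs, and 680 CTLs in 24 clonotypes. RARα-TG tumors held 81 CTLs alone in their clonotype, 13 in clonotypes of 2 to 4, and 0 in larger ones, so size could not be compared there. Median depth differed with size, at 4280 UMIs in single WT CTLs against 6017 in those of large clonotypes, and 3947 against 5488.5 UMIs in RARα-KO.

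In WT CTLs most members were higher in large clonotypes. Gzmb was at 1295 CPM in clonotypes of 1 cell and 3425 CPM in those of 10 or more, a log2 ratio of 1.40 (1.30 to 1.51), which was 0.24 with the cells of the first calling step alone. Prf1 was at 137 and 382 CPM, Gzmk at 47.0 and 153 CPM, and Gzma at 184 and 1334 CPM, the largest of these differences at 2.86 (2.60 to 3.13). Of 9 members tested, 6 were at least 2-fold higher and 0 at least 2-fold lower in large clonotypes, against 4.36% and 3.02% of 6558 genes, with a median of 1.48 over the members and 0.04 over all genes. The sizes between did not form a steady slope: Gzmb was at 3192 CPM in clonotypes of 2 to 4 and 1857 CPM in those of 5 to 9.

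In RARα-KO CTLs, Gzmb and Prf1 also differed with size, at 3127 against 6374 CPM (log2 ratio 1.03, and 0.46 with the first calling step alone) and 251 against 625 CPM (1.32). Gzma and Gzmk did not follow them. Gzma was at 1399 CPM in single CTLs and 1027 CPM in large clonotypes, a log2 ratio of -0.45 (-0.56 to -0.33), and Gzmk was at 528 and 406 CPM, a log2 ratio of -0.38 (-0.56 to -0.19), which was 0.05 with the cells of the first calling step alone. The Gzmc to Gzmg sum was at 388 and 1596 CPM, a log2 ratio of 2.04, and at 1.23 without the top clonotype of each size group. Of 9 members, 5 were at least 2-fold higher and 0 at least 2-fold lower, against 2.48% and 2.83% of 6544 genes. The medians were 1.03 and -0.06.

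Gzmk was higher in RARα-KO CTLs at both ends of the clonotype sizes. Among CTLs alone in their clonotype, Gzmk was at 47.0, 528 and 160.3 CPM, log2 ratios of 3.49 (2.95 to 4.08) and 1.77 to WT. Among CTLs of large clonotypes the RARα-KO to WT ratio was 1.40. Gzmb had ratios of 1.27 and 0.90 in these groups and Gzma of 2.93 and -0.38, while the Gzmc to Gzmg sum had ratios of -2.54 and -1.52. In single CTLs, 3 of 8 members were at least 2-fold higher and 4 at least 2-fold lower in RARα-KO, against 7.57% and 3.85% of all genes tested, and in large clonotypes 2 and 3 of 9, against 1.51% and 1.23%. In RARα-TG single CTLs Gzmb stood above WT at 1711 CPM, a log2 ratio of 0.40 (0.26 to 0.55). There, 2 of 8 members were at least 2-fold higher than WT and 4 at least 2-fold lower, against 5.49% and 6.2%.

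The largest clonotypes of WT and RARα-KO show how far expanded CTLs of 1 genotype differed. Whether clonotypes of a genotype came from the same mouse is not known. Their TRB CDR3 nucleotide sequences, the part of the receptor that marks each clonotype, are given here as read in the receptor library, with the number of CTLs.
WT 1 (TRBV31, 64 CTLs): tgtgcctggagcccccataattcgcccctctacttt
WT 2 (TRBV31, 58 CTLs): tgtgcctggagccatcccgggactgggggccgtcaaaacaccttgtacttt
WT 3 (TRBV5, 39 CTLs): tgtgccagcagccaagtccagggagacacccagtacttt
RARα-KO 1 (TRBV16, 113 CTLs): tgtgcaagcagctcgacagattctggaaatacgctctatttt
RARα-KO 2 (TRBV16, 75 CTLs): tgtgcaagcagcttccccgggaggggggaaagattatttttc
RARα-KO 3 (TRBV3, 72 CTLs): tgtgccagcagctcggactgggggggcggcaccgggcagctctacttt
Among the WT clonotypes, Gzma stood at 3913 CPM in WT 1, 180.5 CPM in WT 2 and 811 CPM in WT 3. Their Gzmc to Gzmg sums had another order, at 2728, 1811 and 9643 CPM. Gzmb was at 3638, 3065 and 1568 CPM. In RARα-KO 1, RARα-KO 2 and RARα-KO 3, Gzmb was at 6449, 6156 and 5516 CPM, all above the WT clonotypes, and Gzmk was at 425, 411 and 366 CPM against 257, 94.7 and 180.2 CPM in WT. The sum from Gzmc to Gzmg ran from 121 CPM in RARα-KO 3 to 1491 CPM in RARα-KO 2.

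The clonotypes with at least 10 CTLs numbered 19 in WT and 21 in RARα-KO. Each was measured in 1 pooled sample and so is not a replicate of its genotype. Their lowest, median and highest Gzmb levels were 1119, 3058 and 10385 CPM in WT and 1984, 6161 and 11779 CPM in RARα-KO. The ranges overlapped, with 18 of 21 RARα-KO clonotypes above the WT median and 1 above the highest WT clonotype. Gzmk had 0, 99.5 and 696 CPM in WT and 94.2, 394 and 791 CPM in RARα-KO, with 20 of 21 above the WT median. For the Gzmc to Gzmg sum the values were 234, 2728 and 14546 CPM in WT and 16.7, 173 and 12053 CPM in RARα-KO. Here 11 RARα-KO clonotypes lay below the lowest in WT, 4 above the WT median and 0 above the highest in WT. The others thus lay within the WT range. At least 1000 CPM were reached by 13 of 19 WT and 8 of 21 RARα-KO clonotypes. Prf1 had 90.01, 359 and 892 CPM in WT and 176, 454 and 1627 CPM in RARα-KO, and Gzma had 16.6, 456 and 5947 against 26.5, 740.1 and 4685 CPM.

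**Figure D4:**
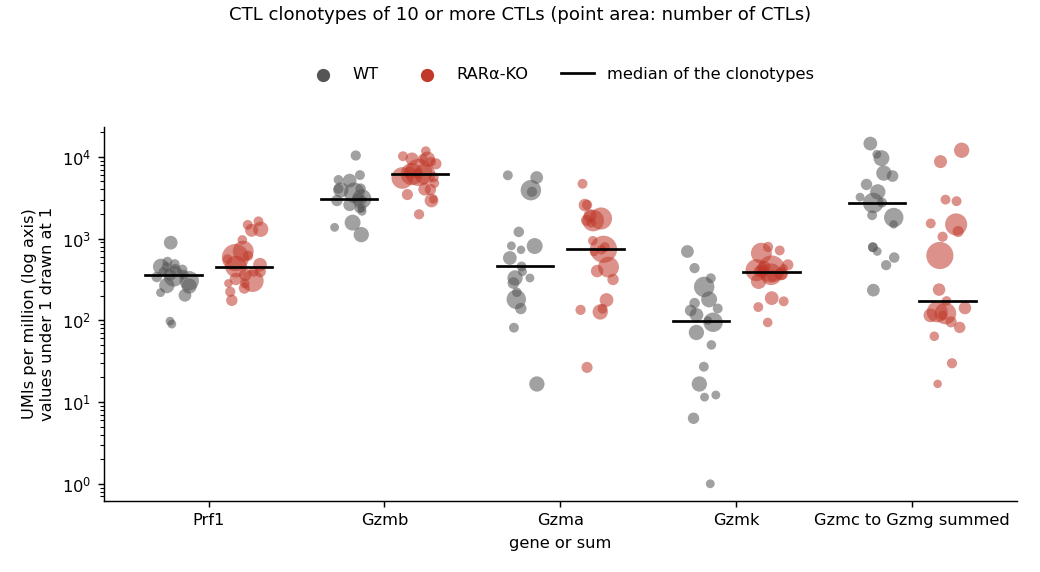
Level of Prf1, Gzmb, Gzma, Gzmk and the Gzmc to Gzmg sum in each clonotype with at least 10 CTLs, in CPM on a log axis, with 19 WT and 21 RARα-KO clonotypes as points whose area gives the number of CTLs, and lines at the medians. The 1 WT clonotype at 0 for Gzmk is drawn at 1. Most RARα-KO clonotypes lie above the WT median for Gzmb and Gzmk, and 11 lie below the lowest WT clonotype for the Gzmc to Gzmg sum.

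A few clonotypes weighed heavily. A RARα-KO clonotype of 36 CTLs held 25.8% of the RARα-KO Gzmc to Gzmg UMIs and 57.4% of the Gzmg UMIs, a WT clonotype of 29 CTLs held 18.5% of the WT sum, and WT 1 held 24.9% of the WT Gzma UMIs.

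Across the clonotypes the members did not move as 1 group. Spearman's rho, over 19 WT and 21 RARα-KO clonotypes that share library and depth, was 0.42 and 0.77 for Gzmb with Prf1. For Gzma with Gzmk it was 0.72 in WT and 0.02 in RARα-KO. For Gzmb with the Gzmc to Gzmg sum it was -0.28 in WT and 0.46 in RARα-KO.

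In single cells, the UMIs of most members were concentrated in few CTLs. The 10% of CTLs with the most UMIs held 85.9% of the sum in WT and 98.3% in RARα-KO, with up to 1233 and 1206 UMIs in 1 cell. The top 10% for each gene held 65.7% and 42.3% of Gzmk, 59.9% and 64.1% of Prf1, and 93.2% and 80.0% of Gzma. All CTLs were then thinned to 1000 UMIs to compare cells, which left out 2 RARα-KO and 2 RARα-TG CTLs. No member was detected in 33.1% of WT and 17.1% of RARα-KO CTLs. At least 1 of the 5 genes was detected in 23.8%, 10.7% and 9.91% of CTLs, and 3 or more in 6.19% (52 of 840), 2.04% (24 of 1176) and 0 of 111, which allows up to 3.27%.

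Gzmd, Gzme and Gzmf were found in the same cells. Over all 2127 thinned CTLs, 68 held both Gzmd and Gzme, against 5.04 if their detection were unrelated. Of CTLs with Gzmd, 63.4% in WT and 69.7% in RARα-KO also held Gzme, against 3.25% and 0.875% of CTLs without Gzmd. Gzmf was found in 73.2% and 69.7% of CTLs with Gzmd. These are close copies, and the part of shared reads in this was not tested. Gzmc overlapped less, with Gzmd in 31.9% and 20.9% and Gzmf in 58.2% and 32.8% of the CTLs with Gzmc.

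CTLs with Gzmd mostly held Gzmb too. In WT 77.5% (66.0 to 86.5; 55 of 71) of CTLs with Gzmd had a Gzmb UMI at 1000 UMIs per cell, and in RARα-KO 97.0% (84.2 to 99.9; 32 of 33), against 49.7% and 68.0% of the CTLs without Gzmd. Without thinning the shares were 96.5% and 98.2%, and in WT without clusters 2 and 4 the thinned share was 61.5%. The share of CTLs with Gzmb was larger where at least 1 of the 5 genes was detected: 43.9% of 640 WT CTLs with none, 72.9% of 96 with 1, 84.6% of 52 with 2, 81.8% of 33 with 3 and 76.5% of 17 with 4. In RARα-KO it was 66.4% of 1050, 86.0% of 86, 87.5% of 16 and 100% of 14 CTLs with none to 3 of the genes.

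Gzmk and these genes were found together in few cells. Gzmk and Gzme were found together in 5 CTLs, against 21.7 if unrelated, Gzmk and Gzmd in 7 against 22.0, and Gzmk and Gzmf in 26 against 43.5. In WT, 10.3% of CTLs with none of the 5 genes held Gzmk, 6.25% with 1, 1.92% with 2 and 3.03% of 33 with 3. In RARα-KO the shares were 30.3%, 31.4%, 12.5% (2 of 16) and 28.6% (4 of 14), with no steady fall. Gzmk was found with Gzma: Gzma was detected in 37.8%, 31.6% and 58.3% of CTLs with Gzmk, against 13.7%, 21.8% and 19.5% of those without. Genotypes and clusters are pooled in the counts over all CTLs.

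Gzmb and Prf1 were found together more often than if unrelated, with Gzmb in 71.7% of WT and 88.7% of RARα-KO CTLs with Prf1, against 47.2% and 61.7% of those without. Their Spearman's rho over CTLs was 0.25 in WT and 0.40 in RARα-KO. Gzmb was also detected in 72.9%, 82.5% and 77.4% of CTLs with Gzma, against 48.1%, 64.3% and 42.5% of those without.

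**Figure D5:**
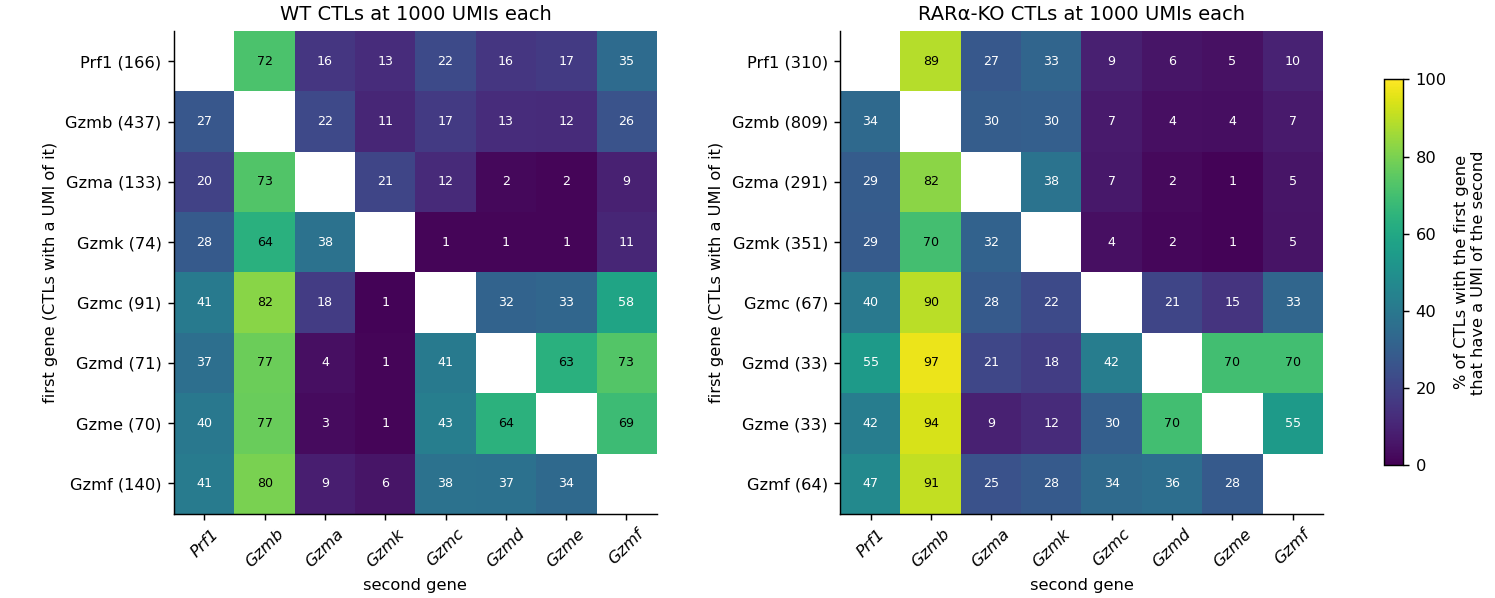
Share of CTLs with a UMI of a second gene (x axis) among CTLs with a UMI of a first gene (y axis, with the number of such CTLs), in percent, after thinning each CTL to 1000 UMIs, for WT (left) and RARα-KO (right). Gzmd, Gzme and Gzmf are found together. CTLs with Gzmk hold Gzma more often than Gzmd or Gzme, but Gzma is also detected in more CTLs. Its share of all thinned CTLs is 15.8% in WT and 24.7% in RARα-KO, against 8.45% and 2.81% for Gzmd.

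Between genotypes, few granule machinery genes passed 2-fold, as was so for all genes. Of 24 genes tested for granule formation, protease processing and exocytosis, 0 were 2-fold higher or lower in RARα-KO CTLs. The shares over all genes were 1.2% and 1.0%. The median log2 ratio was 0.23, against 0.02 over all genes tested. The extremes were Ctsw (-0.58), a granule cathepsin, and Gnptab (0.71), which makes the mannose phosphate tag that routes granzymes to granules, with Srgn, the proteoglycan that binds them, at 0.53. In RARα-TG CTLs, 1 of 25 was 2-fold higher (Ctsl, 2.53, a lysosomal cathepsin) and 1 lower (Stx11, -1.36, a fusion protein of granule release), shares near the 4.57% and 5.55% of all genes, with a median of -0.12. In large against single WT clonotypes, 2 of 24 were higher (Stx7, 1.39, and Snap23, 1.14, both membrane fusion proteins) and 0 lower, against 4.36% and 3.02% of all genes, with a median of 0.36. In RARα-KO 1 of 24 was higher (Igf2r, 1.10, the mannose phosphate receptor), against 2.48%.

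Serpin genes, the family of the Gzmb inhibitor Serpinb9, were mostly lower in RARα-TG CTLs. Whether each of them inhibits a granzyme was not tested. Of 6 tested, 4 were at least 2-fold lower than in WT, against 5.55% of all genes, with a median of -1.30: Serpinb9b (at most -2.88), Serpinb6a (-2.09), Serpinb1a (-1.34) and Serpina3g (-1.26). Serpinb9, the inhibitor of Gzmb, had -0.62. In RARα-KO CTLs the median was -0.21, with 1 of 6 at least 2-fold higher (Serpinb9b, 1.12), against 1.2% of all genes. Serpinb9 was at -0.36, while Gzmb itself was at 1.17.

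Of 26 transcription factors and signalling genes tested as regulators of granzymes, 4 were at least 2-fold higher in RARα-KO CTLs and 0 lower, against 1.2% and 1.0% of all genes, with a median of -0.11. They were Prdm1 (1.90), Jun (1.62), Eomes (1.44) and Irf4 (1.03). Prdm1 encodes Blimp-1 and Eomes a T-box factor, both known for effector and memory differentiation of CTLs. Irf8 (-0.77) was the lowest. In RARα-TG CTLs 3 of 25 were at least 2-fold higher, namely Tcf7 (2.12), a factor of naive and memory cells, Rara (1.16), the transgene itself, and Eomes (1.09), and 6 were lower, against 4.57% and 5.55% of all genes, led by Irf8 (-2.29), Bhlhe40 (-1.76) and Id2 (-1.64). With clonotype size in WT, Tcf7 (-3.05), Klf2 (-2.19) and Eomes (-1.46) were lowest in large clonotypes and Id2 (1.25) highest, and in RARα-KO Tcf7 (-2.34) was lowest and Irf8 (1.17) highest.

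Tnf, 1 of the 3 death ligand genes, followed Gzmb in direction, with log2 ratios of 1.04 in RARα-KO (37.3 CPM in WT and 76.5 CPM in RARα-KO) and -3.49 in RARα-TG CTLs. Fasl, the ligand of the Fas death receptor, was level at -0.07 and -0.00, and Tnfsf10 stood at -0.41 and 0.49. Among state genes, the inhibitory receptors Pdcd1, Lag3 and Havcr2 had -0.86, 0.41 and 0.92 in RARα-KO CTLs and -1.50, -4.09 and -2.89 in RARα-TG CTLs, where S1pr1 (1.17), a gene of recirculation, was higher. In large WT clonotypes Havcr2 (1.96) and Lag3 (1.35) were higher and S1pr1 (-2.00) lower than in single CTLs.

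The genes whose pattern was most like each member were found by Pearson's r of log2 CPM over 24 groups of cluster and genotype and 5087 genes. The groups share 1 library and several share cells' genotype, so r is a description. Gzma was most like Cd8b1 and Ly6c2 (both 0.93), and Gzmk was most like Armc7 (0.90), Rpa2 and Ly6c2 (both 0.89). Prf1 was most like Napsa (0.86) and Abcb9 (0.80). Gzmb had an r of 0.82 with Sema4d. The Gzmc to Gzmg sum was most like Nrgn (0.79), the gene that led cluster 4. Between members, r was 0.93 for Gzma with Gzmk, 0.60 for Gzmb with Prf1 and 0.02 for Gzmb with the Gzmc to Gzmg sum.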

How the data were processed

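The deposited matrix held raw UMI counts per gene and barcode that the authors made with Cell Ranger against mm10. The labels name version 6.1.0, while the matrix header names version 4. Receptor and hashtag counts came from the same droplets. Cells were called from the deposited counts by an expected number of 3000 cells, then by a test against ambient RNA from barcodes ranked 45000 to 90000 (at least 500 UMIs, 1000 simulations, false discovery rate 0.01). Hashtags were assigned with HTODemux at 0.99 (Seurat 5.3.0, R 4.3.3), which gave 4925 singlets, 426 doublets and 234 negative cells, and the latter 2 were left out. Doublets within a genotype, estimated at 249 cells (5.05%), remain, and no mitochondrial filter was used. Of 1729 cells in 104 clonotypes of 5 or more cells, 3 (0.174%) carried a hashtag other than that of their clonotype. Clusters were made with scanpy 1.11.5 (2000 variable genes, 30 components, 15 neighbours, resolution 1), without receptor segments, the 10 members and Gzmn. A cluster with a receptor in over 50% of cells was a T cell cluster. Levels are UMI sums scaled to 1000000 UMIs of the group (CPM), with exact Poisson intervals (exact Clopper-Pearson for shares, exact binomial for ratios; scipy 1.17.1, Python 3.11.15). Genes needed 0.1 UMIs per cell in 1 of the groups compared, and a count of 0 was set to its floor of 3 UMIs. Calls are 2-fold differences, since 1 sample per genotype allows no test. Shares were also taken at 1000 UMIs per cell, drawn at random with a fixed seed. Ratios within clusters needed 20 CTLs in both groups, and likeness used groups of 30 cells, genes above 50 CPM in a group and a pseudocount of 10 CPM. All members were named, and from each list the 3 highest and 3 lowest genes could be named. The members, lists and comparisons were chosen with earlier results of these data known. Some items that these rules would name are not reported here. The steps were tested on simulated data.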

Additional observations from a re-analysis of the deposited data

Results flagged for a closer look

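The log2 ratios of 7 results had opposite signs in 2 groups of cells under the same contrast, with both intervals off 0. With 1 sample per genotype the difference between the groups was not tested.

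Between RARα-KO and WT, Gzmb had -0.26 (-0.34 to -0.18) in CD4 T cells and 1.17 (1.14 to 1.19) in CTLs. Foxp3 UMIs were in 120 of 216 WT and 79 of 245 RARα-KO CD4 T cells, and among those Gzmb was at 3047 and 3964 CPM. Gzmc had 2.25 (1.77 to 2.77) in CD4 T cells and -1.02 (-1.10 to -0.95) in CTLs. Between RARα-TG and WT, Gzmb had 0.77 (0.70 to 0.85) in CD4 T cells and -0.91 (-1.01 to -0.82) in CTLs, and Gzmk had -2.91 (-4.89 to -1.39) in CD4 T cells and 0.70 (0.40 to 0.99) in CTLs.

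Between clonotypes of 10 or more cells and of 1 cell, 3 granzymes had opposite signs in RARα-KO and WT CTLs. Gzma had -0.45 (-0.56 to -0.33) in RARα-KO and 2.86 (2.60 to 3.13) in WT, Gzme had -0.40 (-0.73 to -0.05) and 0.32 (0.13 to 0.51), and Gzmk had -0.38 (-0.56 to -0.19) and 1.71 (1.18 to 2.28). The opposite signs of Gzme did not hold: in RARα-KO it was 1.13 without the top CTL, and with the first calling step alone it was 0.12 in RARα-KO and -0.060 in WT. In the first calling step Gzmk in RARα-KO was 0.052.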

How the results depend on the processing

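Of 176 values of the named comparisons under settings listed at the start, 109 stayed within the interval of the reported value (counts of members: within 1.5 times), 65 moved further and 2 turned sign. Of 36 under settings added after seeing the data (both CD8 chains, clusters equal, no top CTL, no top clonotype), 13, 21 and 2 did so. For single members the counts were 270, 144 and 13 of 427, and 60, 49 and 5 of 114. Ratios within clusters without the top CTL or clonotype were also chosen after seeing the data. No paired analysis was possible because each genotype was 1 sample.

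The Gzmb log2 ratio of RARα-KO to WT CTLs was 1.12 with mitochondrial, ribosomal, receptor and member genes out of the denominator, 1.07 in cells with a clonotype, 0.60 with clusters equal, 1.25 as a mean over cells, 1.34 with clonotypes equal, 0.40 with 90% own hashtag, 1.19 thinned, 0.38 without clusters 2 and 4, 1.19 without the top CTL and 1.23 without the top clonotype. The Gzmc to Gzmg sum had, in the same order, -1.27, -1.47, -0.22, -1.48, -1.58, -2.30, -1.50, -1.34, -1.27 and -1.37, and -1.12 without the largest clonotype. Gzmb of RARα-TG to WT was -0.49 in CTLs with Cd8a or Cd8b1, -0.76 with a clonotype, 1.05 with clusters equal, -1.16 in cells of the first calling step, -0.47 as a mean over cells, 0.15 with clonotypes equal, -1.62 with 90% own hashtag, -0.51 thinned and -0.76 without clusters 2 and 4. The sum had -2.97 with Cd8a and Cd8b1, -0.74 with either, -1.53 with a clonotype, 8.96 with clusters equal (clusters 6 and 7 alone), -0.040 in the first step, -0.77 over cells, -1.22 with clonotypes equal, -0.72 with own hashtag, -0.64 thinned, 0.98 without clusters 2 and 4, -1.05 without the top CTL and -0.19 without the top clonotype. Own hashtag left 17 WT CTLs. For RARα-TG to WT, clusters equal covered clusters 6 and 7 alone for every gene.

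For clonotypes of 10 or more against 1, Gzmb in RARα-KO was 0.46 in the first step, 1.16 over cells, 1.33 with clonotypes equal, 1.22 thinned, 0.84 without clusters 2 and 4 and 1.12 without the top CTL, and in WT 0.24, 1.67, 1.99, 1.61, 2.24 and 1.59, and 1.23 with both CD8 chains. The sum in RARα-KO was 2.80 with clonotypes equal, 2.59 thinned, 0.98 without clusters 2 and 4, 2.65 without the top CTL, 1.23 without the top clonotype and 2.28 without the largest, and in WT 2.16, 1.97, 1.41, 1.36 and 0.71 for the first 5 of these, 0.93 with these genes out of the denominator, 0.88 with both CD8 chains, 1.22 with either, 0.94 with HTODemux at 0.95, 1.16 with a clonotype, 0.79 in the first step and 1.88 over cells.

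Members 2-fold higher in RARα-KO numbered 1 with own hashtag and 1 without clusters 2 and 4, and in RARα-TG 0 with both CD8 chains, 0 with a clonotype, 2 with clusters equal, 2 over cells, 3 with clonotypes equal and 2 thinned; those lower numbered 0 in RARα-KO and 1 in RARα-TG with clusters equal. Gzmb was in 100% of RARα-KO CTLs with Gzmd in the first step and without the largest clonotype, and in WT in 86.7% in the first step, 96.5% not thinned, 100% with own hashtag (2 of 2), 92.4% thinned to 2000 UMIs and 61.5% without clusters 2 and 4.

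Single members turned sign as follows. Gzma of RARα-KO to WT was -0.12 in the first step. Gzma of RARα-TG to WT was 0.54 with clusters equal, 0.53 over cells, 1.21 with clonotypes equal, 0.58 with own hashtag, 0.37 thinned, 0.092 without the top clonotype and 0.17 without the largest. Gzmc was 0.29 for RARα-KO with clusters equal and -1.24 for RARα-TG with both CD8 chains, Gzmk was -0.28 for RARα-TG in the first step, and Prf1 was -0.054 for RARα-KO with own hashtag. With clonotype size, Gzmd was -1.24 in RARα-KO and -0.30 in WT without clusters 2 and 4, Gzme was 0.12 in the first step and 1.13 without the top CTL in RARα-KO and -0.060 in the first step in WT, and Gzmk was 0.052 in RARα-KO in the first step. The cause was not tested for any of these. Depth limits Gzmm, and all RARα-TG values but Gzmb, Gzma, Gzmc and Gzmk, which rest on 109 UMIs or fewer.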

Other observations

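T cells in neither the CTL nor the CD4 gate of WT, RARα-KO, RARα-TG, in this order, numbered 390, 294 and 409. Gzmb stood there at 1979.7, 2676 and 3500.2 CPM, Gzmk at 36.6, 219.9 and 19.4 CPM, and the Gzmc to Gzmg sum at 487, 2138 and 74.0 CPM. The sum was thus highest in RARα-KO cells of this remainder and in WT cells among CTLs. Few cells may carry the RARα-KO value. In cluster 4, all 79 RARα-KO cells held 10108 UMIs of the sum and the 70 CTLs among them held 8202. The rest lay in the few cells of that cluster outside the CTL gate. The remainder without its top cells was not tested.

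Cluster 10, led by Tnfsf11, Tnfsf8, Csf2 and Cd4, had the lowest Gzmb level of the T cell clusters and held Gzmd and Gzme in few cells. Over all genotypes, 8.75% of 240 cells held Gzmd, 10.0% held Gzme and 16.25% held Gzmb. In its 65 WT, 129 RARα-KO and 46 RARα-TG cells, Gzmb was at 361, 493 and 50.1 CPM, Gzmd at 686, 319 and 3.85 CPM, and Gzme at 943, 304 and 30.8 CPM. The RARα-TG cells had the lowest value of all 3 genes.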
